A study of Mus musculus with 2 samples.

Results

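The genes described here are those of autotaxin and lysophosphatidic acid (LPA) signalling: Enpp2, which encodes autotaxin, the LPA receptor genes Lpar1, Lpar2, Lpar4, Lpar5 and Lpar6, and the lipid phosphatase genes Plpp1 and Plpp3. They are 8 genes of the 18090 gene IDs with a read in either library, found by their Entrez Gene numbers. The set was chosen by the measured RPKM and reads of Enpp2, which were much higher in the mature library, so those values are a description and support nothing further. RNA was sequenced from 2 libraries of dendritic cells (DC), the antigen-presenting cells that prime T cells. The mature library came from DC given lipopolysaccharide (LPS) at 100 ng/ml for 24 h, and the immature library from DC for which no LPS is given. Both were C57BL/6 bone marrow cells, grown for 6 days with IL-4 at 1 ng/ml beside GM-CSF at 10 ng/ml, then sorted on CD86 and I-Ab with gates that are not stated. The age of the animals, whether marrow was pooled, and whether the immature cells had the extra culture time are not given. There was 1 library of each state, so each difference is between 2 libraries, was not tested, and has no replicate error.

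Autotaxin is a secreted enzyme that cleaves lysophosphatidylcholine in body fluids and leaves LPA, a lipid that acts on cells through G protein-coupled receptors. The receptors of Lpar1, Lpar2 and Lpar3 belong to the EDG family, which also holds receptors of sphingosine 1-phosphate, and those of Lpar4, Lpar5 and Lpar6 are related to the P2Y nucleotide receptors. Plpp1 and Plpp3 encode membrane phosphatases whose active site faces outwards and which strip the phosphate from LPA, ending its signal. In lymph nodes autotaxin is known from the high endothelial venules, where it aids the entry of lymphocytes.

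The mature library held 8.07 M unique reads counted to genes and the immature library 7.56 M. Levels are in RPKM (reads per kilobase of gene model and per 1000000 reads counted to genes), which allows comparison between genes of different length. Each ratio divides the mature by the immature RPKM, and the exact 95% interval beside it in parentheses holds counting error and no other. Of 10 DC marker genes all 10 reached 1 RPKM in a library. Of these, 6 were at least 2-fold higher in mature DC and 1 was lower, with a median log2 difference of 1.34. Among all genes that reached 1 RPKM in a library, 9.05% were higher and 11.3% lower. The 6 include Cd86, on whose protein the cells were sorted. The lower marker was Itgax, at 148.1 RPKM in the mature and 407.2 RPKM in the immature library, 2.75-fold lower (2.66 to 2.84). The higher ones include Ccr7, the receptor for homing to lymph nodes, with a ratio of 18.4 (16.75 to 20.2), Cd83 with 8.83 (7.88 to 9.92), Fscn1, which bundles actin, with 7.42 (6.6 to 8.37) and the sort marker Cd86 with 5.82 (5.29 to 6.4). The list summed to 6339 RPKM in the mature and 8094 RPKM in the immature library, and its largest part was Cd74, the invariant chain of MHC class II, at 2910.0 RPKM in the mature and 5173 RPKM in the immature library.

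Among the members at least 2-fold apart, the promoters of Plpp3 and Lpar2 are shown because 1 was higher and 1 lower in mature DC. Each is the 250 bases before the gene's start, from RefSeq on GRCm38.p6, at chr4:105157097-105157346 and chr8:69822315-69822564, both on the + strand. Capitals mark matches on either strand to a set of textbook motifs picked after the sequences had been seen.
Plpp3: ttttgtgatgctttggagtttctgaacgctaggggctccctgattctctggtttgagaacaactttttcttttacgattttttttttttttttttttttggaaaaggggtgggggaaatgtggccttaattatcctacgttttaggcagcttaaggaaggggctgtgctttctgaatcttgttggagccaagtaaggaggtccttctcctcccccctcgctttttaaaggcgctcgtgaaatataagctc
Lpar2: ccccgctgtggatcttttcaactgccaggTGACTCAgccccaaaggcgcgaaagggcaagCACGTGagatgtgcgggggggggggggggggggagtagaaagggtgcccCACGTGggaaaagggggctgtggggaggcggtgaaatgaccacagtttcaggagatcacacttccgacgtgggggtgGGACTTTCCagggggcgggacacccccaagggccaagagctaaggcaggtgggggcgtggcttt

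The window of Lpar2 held GGACTTTCC, a form of the kappaB motif bound by NF-kB factors, starting 64 bases before the gene's start (position -64). That motif stood in 93 of 32851 promoter windows of this length, 0.283%. The same window held the AP-1 motif TGANTCA at position -221, found in 6.75% of windows, and the E-box CACGTG at positions -190 and -141, found in 6.02%. The looser kappaB form GGNNNTTCC, whose match there is the same bases, stood in 15.7% of all windows. The window of Plpp3 held none of these letters. Neither window held GAAANNGAA, a core of the interferon response element, the STAT motif TTCNNNGAA or the TATA box TATAAA, which stood in 7.13%, 7.02% and 12.4% of windows. The G and C content was 42.4% for Plpp3 and 64.4% for Lpar2, against a median of 52.4% over all windows. A match is a description of the letters and not a site of binding. The table held promoters of 6 of the 8 genes, and had no entry for Enpp2 or Plpp1.

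Autotaxin transcripts were near the limit of counting in immature DC and common in mature DC. Enpp2 (Entrez Gene 18606) had 1005 reads and 38.4 RPKM in the mature library, against 2 reads and 0.0816 RPKM in the immature library. The immature value lay under the level of 3 reads, 0.122 RPKM for this gene. The RPKM ratio was 471 (130.0 to 3893), and its width comes from the 2 immature reads. Enpp2 stood at place 2008 of 16646 listed genes by RPKM in the mature library and at place 15416 of 16573 in the immature library. On the log2 scale with 1 RPKM added, which understates changes of low genes, its difference was 5.19, the second highest of 11547 compared genes, those that reached 1 RPKM in either library.

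The reads of Enpp2 were spread along the gene. In the mature library they covered 97.8% of its model of 3242 bases. In the immature library they covered 3.02%, or 97.9 bases, and since a gene with 1 read was covered over a median of 49 bases, the 2 immature reads did not overlap. Of 124 compared genes with at most 2 immature reads, Enpp2 was the only one with 1000 or more mature reads, a cut chosen after its value was seen. The median of the 124 genes was 7 mature reads, and 5 of them had 100 or more.

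**Figure D1:**
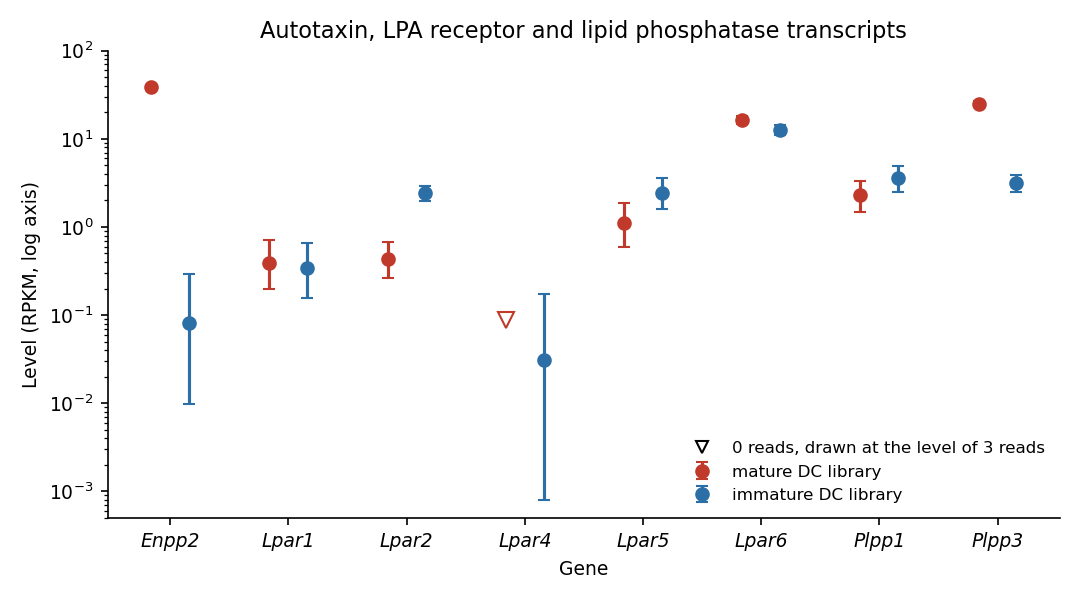
Level of each gene in RPKM on a log axis, with mature DC in red and immature DC in blue. Bars are exact 95% counting intervals from 1 library each, and the open triangle marks 0 reads of Lpar4, drawn at the level of 3 reads. Enpp2 stands at 38.4 RPKM in mature and 0.0816 RPKM in immature DC, and Lpar6 is close to the same height in both.

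The other ENPP genes encode relatives of autotaxin that act on nucleotides or other lipids. Of these 6 genes, 1 reached 1 RPKM, and it was not at least 2-fold apart by the rule used here. Over all compared genes 20.4% were apart, and a count over 1 gene describes that gene alone. That gene was Enpp1, which makes pyrophosphate from ATP, at 0.269 RPKM in the mature and 1.07 RPKM in the immature library, 3.96-fold lower (1.68 to 10.8) on 7 mature and 26 immature reads. Enpp4 and Enpp5 had 0.625 and 0.92 RPKM in the mature library, against 0.435 and 0.775 RPKM in the immature library. Enpp3 and Enpp7 had 0 reads in both. Enpp2 thus made up 95.5% of the summed RPKM of all 7 ENPP genes in the mature library and 3.17% in the immature library.

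Cells known to make autotaxin elsewhere were looked for through their markers. Of 10 fibroblast and stromal markers 2 reached 1 RPKM, and the list summed to 32.3 RPKM in the mature and 76.9 RPKM in the immature library. Nearly all of that was Thy1, which T cells also carry, at 30.2 RPKM in the mature and 75.4 RPKM in the immature library. The T and NK cell markers summed to 5.14 RPKM in the mature and 4.39 RPKM in the immature library, and the source of Thy1 was not tested. The collagen gene Col1a1 had 0.342 RPKM in the mature and 0.618 RPKM in the immature library, Pdgfra had 1 read in mature and 0 in immature DC, and Postn and Cxcl12 had 0 reads in both. Dcn, a matrix proteoglycan gene, also went with Enpp2, on 15 mature and 2 immature reads. It was 7.03-fold higher (1.63 to 63.3) by the plain ratio, but within 2-fold with 1 RPKM added, at 0.84 on the log2 scale. Of 8 endothelial markers 4 reached 1 RPKM, 1 higher and 3 lower in mature DC, beside 9.05% and 11.3% of all compared genes. The list summed to 25.7 RPKM in the mature and 46.9 RPKM in the immature library. Tek, Emcn and Cldn5 had 0 reads in both, and Cdh5 had 4 reads in the mature and 6 in the immature library. Kdr, a receptor of the vascular growth factor VEGF, went with Enpp2, at 228 reads and 5.17 RPKM in the mature and 59 reads and 1.43 RPKM in the immature library, 3.62-fold higher (2.71 to 4.91). Pecam1, which leukocytes also carry, had 17.1 RPKM in the mature and 36.2 RPKM in the immature library, and Vwf, which megakaryocytes also make, 231 reads in the mature and 520 in the immature library. The part of such cells in the level of Enpp2 was not tested. Of 7 adipocyte markers, 6 had 0 reads in the mature library and 4 in the immature library, and Fabp4, which macrophages and DC also express, gave the sum of 47.4 RPKM in mature DC and nearly all of the 16.9 RPKM in immature DC.

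The lipid phosphatase Plpp3 was the other gene at least 2-fold higher in mature DC. Plpp3 (67916) had 640 reads and 25.1 RPKM in the mature library, against 75 reads and 3.14 RPKM in the immature library, a ratio of 7.99 (6.29 to 10.3). By log2 difference it stood at place 81 of 11547 genes. Its reads covered 83.5% of the gene model in the mature and 51.3% in the immature library. Plpp1 (19012), of the same enzyme family, had 26 reads and 2.28 RPKM in the mature library, against 38 reads and 3.55 RPKM in the immature library, a ratio of 0.641 whose interval of 0.374 to 1.08 holds equal levels. Plpp1 overlaps Mtrex in the RefSeq table, a gene with 32.1 RPKM in the mature and 32.2 RPKM in the immature library, and reads in shared bases cannot be assigned without strand. Plpp3 made up 91.7% of the summed RPKM of Plpp1 and Plpp3 in the mature library and 46.9% in the immature library. Their relative Plpp2 is not in this sum. It had 6.77 RPKM in the mature and 19.0 RPKM in the immature library, in the latter more than Plpp1 or Plpp3.

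**Figure D2:**
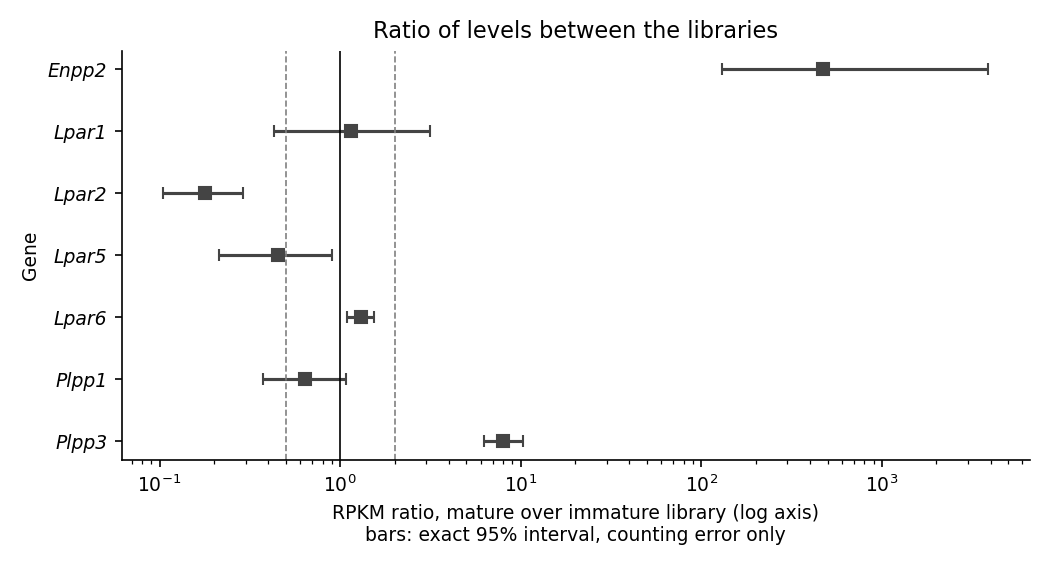
Ratio of mature to immature RPKM for the 7 genes with reads in both libraries, on a log axis. Bars are exact 95% counting intervals, the solid line marks equal levels and the dashed lines 2-fold. Enpp2 at 471 and Plpp3 at 7.99 lie to the right of both dashed lines. Lpar2 at 0.178 and Lpar5 at 0.451 lie to the left, and the bar of Lpar5, 0.214 to 0.905, crosses a dashed line.

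Among the receptors, Lpar6 was the most abundant in each library and Lpar2 differed most. Lpar6 (67168), a receptor coupled to G12 and G13 proteins and known in human genetics for its role in hair growth, had 326 reads and 16.4 RPKM in the mature library, against 235 reads and 12.6 RPKM in the immature library. The ratio was 1.3 (1.1 to 1.54), within 2-fold. Lpar6 lies inside Rb1 in the RefSeq table, and Rb1 had 37.9 RPKM in the mature and 22.5 RPKM in the immature library, a ratio of 1.68 (1.54 to 1.84). Whether reads of Rb1 transcripts were counted to Lpar6 was not tested. The reads of Lpar6 covered 70.6% of its model in the mature and 70.3% in the immature library.

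Lpar2 (53978), a receptor of the EDG family that couples to several G proteins, had 20 reads and 0.435 RPKM in the mature library, against 105 reads and 2.44 RPKM in the immature library. It was 5.6-fold lower (3.45 to 9.55) in mature DC by the plain ratio, and lower by 1.26 on the log2 scale with 1 RPKM added. The counting intervals of its level, 0.265 to 0.671 RPKM in mature and 1.99 to 2.95 RPKM in immature DC, do not overlap. Both values are low, and Lpar2 was no longer 2-fold apart with 5 RPKM added, at -0.45 on the log2 scale.

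Lpar5 (381810), whose product restrains antigen receptor signalling in mouse lymphocytes, had 13 reads and 1.1 RPKM in the mature library, against 27 reads and 2.45 RPKM in the immature library. It was 2.22-fold lower (1.1 to 4.68) by the plain ratio but within 2-fold on the scale with 1 RPKM added, at -0.71. Lpar1 (14745), the receptor with broad expression in the nervous system and in fibroblasts, had 11 reads and 0.395 RPKM in the mature library, against 9 reads and 0.345 RPKM in the immature library, a ratio of 1.15 (0.431 to 3.13). Lpar4 (78134), known from vessels, had 0 reads in the mature and 1 read in the immature library, both under the level of 3 reads, so no ratio is given. Lpar3, the remaining LPA receptor gene, had 3 reads in the mature and 6 in the immature library.

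The 6 receptors summed to nearly the same level in both libraries, 18.4 RPKM on 373 reads in the mature and 18.2 RPKM on 383 reads in the immature library. Their makeup differed. Lpar6 gave 88.7% of the sum in mature DC and 69.3% in immature DC. The other receptors together had 2.08 RPKM in the mature and 5.58 RPKM in the immature library.

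**Figure D3:**
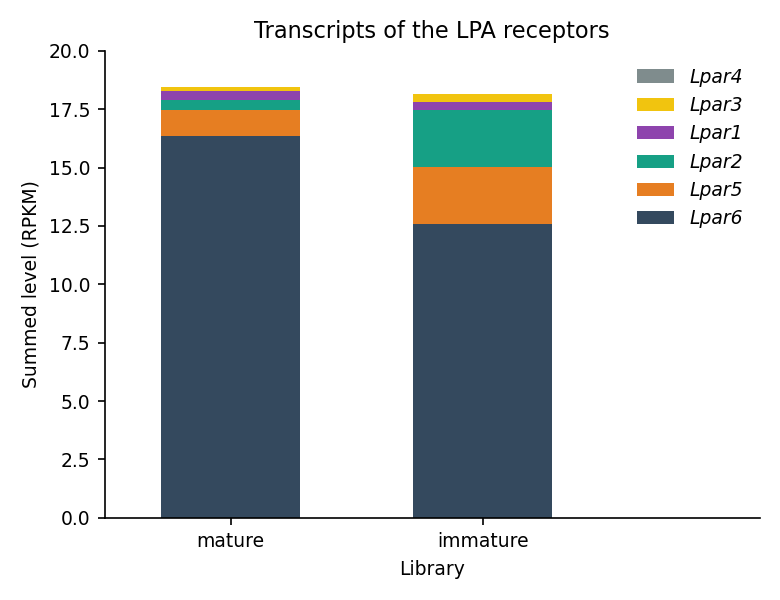
Summed RPKM of the 6 LPA receptor genes in the mature (left) and immature (right) library, stacked by gene, with 1 library per bar and no error bar. The bars reach 18.4 RPKM in mature and 18.2 RPKM in immature DC, and Lpar6 fills 88.7% of the mature and 69.3% of the immature bar.

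By level, the order in the mature library was Enpp2, Plpp3, Lpar6, Plpp1, Lpar5, Lpar2, Lpar1 and Lpar4, and the counting intervals of Plpp1 and Lpar5, of Lpar5 and Lpar2, and of Lpar2 and Lpar1 overlap. In the immature library the order was Lpar6, Plpp1, Plpp3, Lpar5, Lpar2, Lpar1, Enpp2 and Lpar4. There the intervals separate Lpar6 from Plpp1 and Lpar2 from Lpar1, and those of the other neighbours overlap.

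Of the 8 genes, 6 reached 1 RPKM in either library. Of these 6, mature DC had 2 at least 2-fold higher (9.05% of all 11547 compared genes were) and 1 at least 2-fold lower (11.3% of those genes), so that 3 were apart in either direction (20.4% of those genes). The other 3 lay within 2-fold, and Lpar1 and Lpar4 were under 1 RPKM in both. Enpp2 passed the filter only through the mature library and Lpar2 only through the immature library, so each had to differ, and the counts describe the genes without supporting a difference. The median log2 difference of the 6 genes was -0.060, and that of all 11547 genes 0.026.

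**Figure D4:**
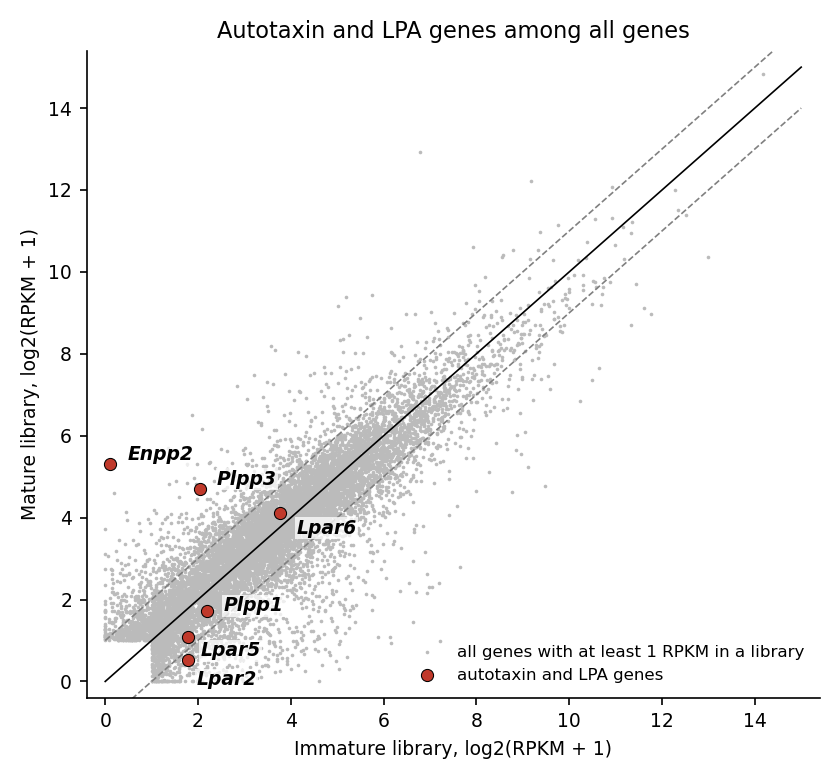
Each grey point is 1 of the 11547 compared genes, at log2(RPKM + 1) in the immature (horizontal) and mature (vertical) library, with the 6 members that passed the filter in red. The solid line marks equal levels and the dashed lines 2-fold, and Enpp2, with a log2 difference of 5.19, lies farthest above the line among the members.

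With 2 libraries, likeness to Enpp2 can only be the nearness of the log2 difference. Among compared genes with a symbol, the 5 nearest were Ceacam15 at 4.63, Nos2 at 4.63, Saa3 at 4.43, Il12b at 4.43 and Sema7a at 4.37. Nos2 is the inducible nitric oxide synthase, Saa3 an acute phase gene, Il12b the p40 chain of interleukin-12, and Sema7a a semaphorin. Of these, Il12b had a similarly low immature level, with 369 reads in the mature and 2 reads in the immature library. The others had between 28 and 329 immature reads.

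The markers of other marrow cells also differed between the libraries. For scale, 9.05% of all compared genes were at least 2-fold higher in mature DC and 11.3% lower. All 10 neutrophil and precursor markers were at least 2-fold lower in mature DC, and their sum was 858 RPKM in the mature and 6793 RPKM in the immature library, with none at 0. Of 9 macrophage and monocyte markers 8 reached 1 RPKM, 3 were lower and 0 higher, and the sum was 685 RPKM in the mature and 1247 RPKM in the immature library. Their part in the values of Enpp2, Plpp3 and Lpar2 was not tested, and in such bulk samples fewer cells of a type and less RNA per cell cannot be told apart. B cell markers summed to 1.75 RPKM in the mature and 2.67 RPKM in the immature library, and T and NK cell markers to 5.14 RPKM in the mature and 4.39 RPKM in the immature library. The plasmacytoid DC list summed to 191 RPKM in the mature and 97.3 RPKM in the immature library, nearly all from Bst2, an interferon-induced gene, and Tcf4. Its defining gene Siglech had 2 reads in the mature and 1 in the immature library. Osteoclast markers summed to 332 RPKM in the mature and 259 RPKM in the immature library, with Calcr at 0 in both. In that list Acp5, an acid phosphatase, was 3.15-fold higher (2.85 to 3.5), with 145.5 RPKM in the mature and 46.1 RPKM in the immature library, and Dcstamp, needed for cell fusion, 3.03-fold lower (2.64 to 3.48), with 17.65 RPKM in the mature and 53.4 RPKM in the immature library. Mast cell and basophil markers summed to 3.56 RPKM in the mature and 8.64 RPKM in the immature library.

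Receptors that are not among the 8 genes but have been linked to LPA or related lipids were split between 1 gene at least 2-fold higher and others within 2-fold or too low to compare. Gpr35, a receptor of the gut and of myeloid cells whose ligand is debated, had 13.5 RPKM in the mature and 4.03 RPKM in the immature library, 3.35-fold higher (2.75 to 4.11). P2ry10, a receptor of lysophosphatidylserine, had 16.4 RPKM in the mature and 10.5 RPKM in the immature library, a ratio of 1.56 (1.32 to 1.85), and its close relative P2ry10b had 3.62 RPKM in the mature and 3.52 RPKM in the immature library. These 2 are similar in sequence, and unique counting could lose reads from either. Of the 5 genes on this list 3 reached 1 RPKM, of which 1 was higher and 0 lower, beside 9.05% and 11.3% of all compared genes.

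A list of other enzymes of LPA and lysophospholipid metabolism was split. It holds enzymes that make these lipids, acyltransferases of the Lpcat family, which use them up, and genes of the phospholipase D family. Of 22 genes 18 reached 1 RPKM, with 4 at least 2-fold higher, 3 lower and 11 within 2-fold, and a median log2 difference of -0.027. Over all compared genes 9.05% were higher and 11.3% lower. The 3 lower genes are acyltransferases or of the phospholipase D family. With 5 RPKM added, 2 were higher. Pla1a, a secreted phospholipase that makes lysophosphatidylserine, had 262 reads and 16.3 RPKM in the mature library, against 17 reads and 1.13 RPKM in the immature library, 14.4-fold higher (8.85 to 25.2). Pla2g7, which breaks down platelet-activating factor, was the most abundant of the list at 736 RPKM in the mature and 265 RPKM in the immature library, 2.77-fold higher (2.67 to 2.88). Gpat3, which makes LPA inside the cell from glycerol 3-phosphate, was 2.71-fold higher (1.99 to 3.74), and overlaps Abraxas1, whose ratio was 1.5 (1.09 to 2.08). Gdpd1, an intracellular lysophospholipase D, was 2.25-fold higher (1.74 to 2.92).

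The 3 lower genes of this list include 2 that add fatty acids to lysophospholipids. Lpcat2, which also makes platelet-activating factor, had 17 RPKM in the mature and 66 RPKM in the immature library, 3.87-fold lower (3.46 to 4.35). Lpcat3, which reacylates lysophosphatidylcholine, the substrate of autotaxin, was 3.38-fold lower (2.95 to 3.87), and it overlaps Emg1, whose ratio was 0.565 (0.474 to 0.673). Pld4, a lysosomal nuclease of the phospholipase D family, had 11.5 RPKM in the mature and 99.9 RPKM in the immature library, 8.71-fold lower (7.47 to 10.2).

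Among 24 other genes for the removal of LPA or phosphatidate, 17 reached 1 RPKM, with 1 higher, 3 lower and 13 within 2-fold, and a median of 0.0040. The shares over all compared genes were 9.05% higher and 11.3% lower. With 5 RPKM added, 0 were higher and 1 was lower. Plpp2, the remaining classical relative of Plpp1 and Plpp3, had 90 reads and 6.77 RPKM in the mature library, against 237 reads and 19 RPKM in the immature library, 2.81-fold lower (2.2 to 3.62). Its interval lay below equal levels and that of Plpp3 above. Mboat1, an acyltransferase of lysophospholipids, was 8.7-fold lower (4.88 to 16.9) on 13 mature and 106 immature reads. Plppr3, a relative of the phosphatases held to lack their activity, was 3.33-fold lower (2.1 to 5.46) and overlaps Ptbp1, a far more abundant gene with a ratio of 0.61 (0.576 to 0.647). Lpin2, a phosphatidate phosphatase, was 2.67-fold higher (2.29 to 3.12). Agpat1, which turns LPA into phosphatidate, was the most abundant at 65.1 RPKM in the mature and 44.1 RPKM in the immature library.

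Of 32 G proteins and effectors that LPA receptors can use, 24 reached 1 RPKM, with 4 higher, 3 lower and 17 within 2-fold, and a median of -0.11. Over all compared genes 9.05% were higher and 11.3% lower. With 5 RPKM added, 1 was higher. Gna13, through which LPA receptors reach the GTPase RhoA, had 56.1 RPKM in the mature and 30.7 RPKM in the immature library, a ratio of 1.83 (1.71 to 1.95). Arhgef1 and Arhgef12, exchange factors that link G12 and G13 proteins to RhoA, lay on opposite sides. Arhgef1 was 2.49-fold lower (2.31 to 2.69), with 33.9 RPKM in the mature and 84.4 RPKM in the immature library, and Arhgef12 was 3.83-fold higher (2.78 to 5.36), with 2.32 RPKM in the mature and 0.605 RPKM in the immature library. Gna15, a Gq family subunit of blood cells, was 6.91-fold lower (5.55 to 8.69), and Plcb2, a phospholipase C of the same cells, 3.79-fold lower (3.5 to 4.1). The regulators Rgs1 and Rgs16, which switch G proteins off, had ratios of 2.18 (2.08 to 2.28) and 2.99 (1.81 to 5.14), and Rhob, a GTPase related to RhoA, one of 2.14 (1.9 to 2.42). Rgs1 was the most abundant of the list in the mature library, at 544 RPKM, against 249.9 RPKM in the immature library. Cdc42, a GTPase of cell polarity, was the most abundant in the immature library, with 214 RPKM in the mature and 318 RPKM in the immature library. Ccn1 and Ccn2, which LPA induces in fibroblasts, had at most 4 reads in either library.

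The genes of sphingosine 1-phosphate, a lipid that shares a receptor family and phosphatases with LPA, were split by receptor. Of 18 genes 14 reached 1 RPKM, with 4 higher, 1 lower and 9 within 2-fold, and a median of 0.21, beside 9.05% higher and 11.3% lower over all compared genes. With 5 RPKM added, 0 of these genes were higher and 0 lower, so each call depends on the pseudocount. The receptor genes S1pr1, S1pr2 and S1pr3 had ratios of 3.1 (2.23 to 4.38), 2.26 (1.86 to 2.75) and 3.65 (2.92 to 4.61). S1pr4, a receptor of blood cells, was 4.15-fold lower (2.84 to 6.2), with 1.81 RPKM in the mature and 7.51 RPKM in the immature library, and S1pr5 had 0 reads in both. Sphk1, which makes the lipid, had 3.62 RPKM in the mature and 0.774 RPKM in the immature library, 4.68-fold higher (2.42 to 9.93). Sgpl1, which breaks it down, had 123 RPKM in the mature and 74 RPKM in the immature library, and Asah1, the acid ceramidase that supplies sphingosine, 116 RPKM in the mature and 135 RPKM in the immature library.

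**Figure D5:**
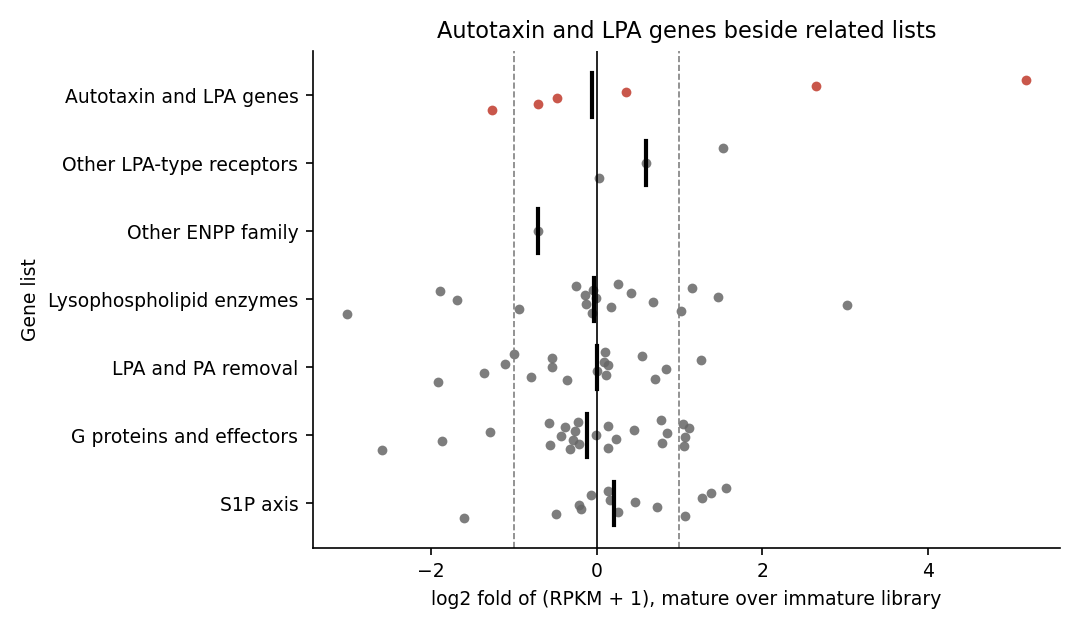
Log2 difference of (RPKM + 1), mature over immature, of each gene with at least 1 RPKM in a library, by list, with the autotaxin and LPA genes in red. PA is phosphatidate and S1P sphingosine 1-phosphate, bars are medians and dashed lines mark 2-fold. The medians lie between -0.70 in the other ENPP family, which is Enpp1 alone, and 0.59 in the other receptors.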

How the data were processed

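Each deposited file lists, per the file headers, the count of unique reads, the gene model length, the percent of that length covered, and RPKM, which the authors made from the counts. Recomputing RPKM from the deposited counts and lengths returned every value within a relative deviation of 1.07e-07. Per the submitters' processing notes the build is mm8. No source used here gives the aligner, counter, strandedness or annotation. A gene listed in 1 file was taken as 0 reads in the other. Symbols came from RefSeq (GRCm38.p6) by Entrez number, or by transcript accession, for 16220 of 18090 IDs, and promoters from RefSeq on the same build. Its gene coordinates were used only to find overlapping genes, since the builds differ.

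With 1 library per group no test was made, and where the labels give no separate cultures or animals the values hold for these libraries alone. A gene was called at least 2-fold apart on log2(RPKM + 1) when it had at least 1 RPKM in a library. Intervals (Clopper-Pearson on the reads for ratios, exact Poisson for levels, scipy 1.17.1) cover counting error only, as reads carry no molecular identifiers. Scaling by edgeR 4.0.16 and DESeq2 1.42.0 was tried, as were other pseudocounts and filters. The steps were tested on simulated data. The protocol's sample 2 was read as the mature library. The members and the lists were chosen with earlier results of these data known. Named were all members, and up to 4 genes higher and 4 lower of each pathway list with its most abundant gene. The 5 genes with a symbol that were nearest to Enpp2, and marker genes, were also named. Markers named beyond the 2 most abundant of a list, and other genes named outside this rule, were picked after their values were seen. One gene of the receptor list is not reported here.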

Additional observations from a re-analysis of the deposited data

How the results depend on the processing

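Over 7 other settings, 118 of 133 recomputed values stayed within 1.5 times the count or within the counting interval. None reversed, but none could: a count has no direction, and the scalings shifted each log2 ratio by at most 0.114. Without the filter each count had to stay the same, since a gene under 1 RPKM in both libraries cannot reach 2-fold with 1 RPKM added. The 118 are therefore no measure of how firm the results are. The count of members at least 2-fold higher was 2 in every setting. The count of lower members was 2 with a pseudocount of 0.1 RPKM, where Lpar5 joined, and 0 both with 5 RPKM and with a filter at 5 RPKM, in place of 1. With 0.1 RPKM, 1 ENPP relative was lower and 2 removal genes were higher. With 5 RPKM, 469 of all genes were higher and 686 lower, 2 lysophospholipid enzymes were higher, 0 removal genes higher and 1 lower, 1 G protein or effector gene higher, and 0 sphingosine 1-phosphate genes higher and 0 lower. With the filter at 5 RPKM, 1 removal gene was lower and 2 G protein or effector genes were higher. A smaller pseudocount calls more low genes and a larger one or the filter fewer, by construction. A common sum of RPKM without the 50 most abundant genes raised each log2 ratio by 0.11 and gave 1234 genes higher and 1123 lower, against 1045 and 1310. Directions of Enpp2, Plpp3, Lpar2, Lpar5, Lpar6 and Plpp1 were the same under all 7 settings, which was fixed beforehand. A pseudocount or filter cannot change a direction, and the scaling shifts were smaller than the smallest of these differences, 0.353 for Lpar6. The counting interval of Plpp1 holds equal levels. No paired analysis was possible because each state has 1 library. Depth limits Lpar1, Lpar4, Lpar5 and the immature level of Enpp2.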

Other observations

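Genes close to undetected in immature DC and read often in mature DC were few. After Enpp2 and Il12b, the next by mature reads among those with at most 2 immature reads were Hspa1b, a heat shock protein gene, with 168 mature reads and 1 immature read, Tmod1, which caps actin filaments, with 132 mature and 2 immature reads, and Plat, tissue plasminogen activator, with 116 mature and 2 immature reads. They were chosen by these values, which are a description. Hspa1b has a near-identical copy, Hspa1a, so its unique reads are uncertain.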
